A study of Mus musculus with 3 samples.

Results

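The cytosolic ribosomal protein genes encode the proteins of the large and the small subunit of the cytoplasmic ribosome. They were taken by symbol from the mouse RefSeq table, as protein-coding genes named Rpl or Rps with a number and an optional a, l, x or y, plus Rplp0, Rplp1, Rplp2 and Rpsa, with the Rps6k kinases left out. The rule found 81 of the 21900 protein-coding genes, 50 for the large and 31 for the small subunit. They were short genes, with a median span of 3175 bp (592 to 11774), and lay on 19 chromosomes.

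The ribosome reads messenger RNA on its small subunit and joins amino acids on its large subunit. Each subunit needs its proteins in matched amounts, and the genes that encode them are among the most actively transcribed genes of growing cells, the epidermis included. Many of their messengers begin with a run of pyrimidines, the terminal oligopyrimidine tract, through which mTOR signalling sets their translation. H3K4me3, trimethylation of lysine 4 on histone H3, marks the starts of active genes, and DLX3 is a homeodomain transcription factor of differentiating keratinocytes, the cells that form the layers above the basal layer of the skin.

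Chromatin immunoprecipitation with sequencing was done on suprabasal keratinocytes from BALB/c mice of wild type genotype, separated on a Percoll gradient and crosslinked with formaldehyde. The labels call the mice adult, whereas the series' design text calls them neonatal. There was 1 library with an anti-DLX3 antibody, 1 with an anti-H3K4me3 antibody and 1 with IgG. The first 2 have a list of peaks, which is what was used here. With 1 library per antibody there was no replicate and no test, so every interval below covers counting error only.

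The DLX3 list held 18087 peaks with a median width of 627 bp, and the H3K4me3 list 16735 peaks with a median width of 2080 bp. Each peak carries the peak caller's score, which grows as the peak's p-value falls. It started at 50.01 in the DLX3 list and 50 in the H3K4me3 list. The score 3100, here called the ceiling, was shared by 766 H3K4me3 peaks, and the highest was 3233.06. The depth of the libraries is unknown from these lists. As a check of the cell type, 14 of 15 keratinocyte markers had an H3K4me3 peak within 1 kb of a gene end, against 0 of 6 immune, 1 of 5 endothelial and 2 of 6 melanocyte markers. Of all protein-coding genes 59.3% had such a peak. The keratinocyte marker without one was Trp63. Of 6 fibroblast markers 4 had a peak, with scores from 78.7 to 476.21, below the lowest score of any ribosomal protein gene (803.41). The lowest score of a keratinocyte marker was 76.82, and the 2 marked melanocyte markers had 1083.4 and 2282.68. The score thus does not set the cell types apart. What part cells other than keratinocytes have in the values below was not tested.

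The starts of ribosomal protein genes with high-scoring DLX3 peaks are shown as examples of the promoters at hand. The windows come from RefSeq on GRCm38.p6, the assembly also called mm10, and 61 of the 81 genes had one. Each stretch runs 5′ to 3′ from 100 bases before the most upstream annotated start to 20 bases from it. Capitals mark the ETS core CCGGAAG on either strand, the palindrome CTCGCGAG, and a run of at least 6 pyrimidines that begins with C within 10 bases of the start. These are the 5 genes with the highest DLX3 scores within 1 kb of an annotated start.
Rps16, chr7:28350589-28350708, plus strand: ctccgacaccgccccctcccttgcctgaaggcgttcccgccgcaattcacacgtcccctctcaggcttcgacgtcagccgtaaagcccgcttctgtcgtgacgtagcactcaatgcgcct
Rpl41, chr10:128549149-128549268, minus strand: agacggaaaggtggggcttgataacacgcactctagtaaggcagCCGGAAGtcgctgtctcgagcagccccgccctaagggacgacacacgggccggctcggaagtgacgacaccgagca
Rpl9, chr5:65391412-65391531, minus strand: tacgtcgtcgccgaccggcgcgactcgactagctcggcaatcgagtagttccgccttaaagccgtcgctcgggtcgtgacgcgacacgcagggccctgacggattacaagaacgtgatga
Rpl31, chr1:39367751-39367870, plus strand: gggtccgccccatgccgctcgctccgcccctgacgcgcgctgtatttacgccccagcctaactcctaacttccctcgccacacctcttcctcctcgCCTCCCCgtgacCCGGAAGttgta
Rps12, chr10:23787190-23787309, minus strand: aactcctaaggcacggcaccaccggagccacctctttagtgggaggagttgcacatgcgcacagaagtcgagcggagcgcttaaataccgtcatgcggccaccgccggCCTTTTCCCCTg

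The next stretches belong to genes with H3K4me3 and no DLX3 peak at the start. They were picked as examples after the motifs had been counted. Rpl35 and Rps6 show the pyrimidine tract at the start, Rpl11 an ETS core just downstream and Rps19 a pair of CTCGCGAG palindromes.
Rpl11, chr4:136053374-136053493, minus strand: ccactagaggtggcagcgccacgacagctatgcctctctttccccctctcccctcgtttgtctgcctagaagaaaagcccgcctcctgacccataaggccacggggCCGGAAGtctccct
Rps6, chr4:86857348-86857467, minus strand: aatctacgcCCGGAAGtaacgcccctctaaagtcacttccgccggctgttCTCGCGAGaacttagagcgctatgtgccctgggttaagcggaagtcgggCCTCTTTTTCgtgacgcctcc
Rpl35, chr2:39005112-39005231, minus strand: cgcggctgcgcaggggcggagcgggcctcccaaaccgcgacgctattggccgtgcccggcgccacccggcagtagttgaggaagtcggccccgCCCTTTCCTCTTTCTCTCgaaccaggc
Rps19, chr7:24884492-24884611, plus strand: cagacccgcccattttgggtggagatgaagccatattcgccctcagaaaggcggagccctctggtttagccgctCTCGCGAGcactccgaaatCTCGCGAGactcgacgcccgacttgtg

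Rpl39l, a paralogue of Rpl39, is shown as a gene of the family with no H3K4me3 peak within 1 kb, although its window holds an ETS core and a pyrimidine run.
Rpl39l, chr16:10170128-10170247, plus strand: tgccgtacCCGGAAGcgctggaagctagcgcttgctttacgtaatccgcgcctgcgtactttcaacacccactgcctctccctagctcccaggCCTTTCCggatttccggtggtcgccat

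H3K4me3 lay at nearly all of the genes. A peak came within 1 kb of a gene end for 78 of the 81 (96.3%, 95% Wilson interval 89.7 to 98.7), against 59.3% of all protein-coding genes. All 31 small subunit genes and 47 of 50 large subunit genes were marked. The 3 without a peak were Rpl10l, Rpl32l and Rpl39l, which are copies of Rpl10, Rpl32 and Rpl39 by name. Rpl10l is known as the testis-expressed replacement of X-linked Rpl10. The 4 genes Rpl10, Rpl32, Rpl39 and Rpl3 that these and Rpl3l are named after all had a peak, with scores of 1370.71, 2288.44, 1905.21 and 2974.05. Rpl3l, the striated muscle form of Rpl3, was counted as marked through a peak of 2503 bp and score 846.74 at the far end of the gene. That peak is shared with Msrb1 and does not reach the annotated starts of Rpl3l.

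H3K4me3 peaks at the ribosomal protein genes were broad. The median width of the 78 marked genes was 3083 bp (interval of the median 2864 to 3244), against 2392 bp (2372 to 2407) for all 12988 marked protein-coding genes. Of the 78, 68 (87.2%) were at or above the median width of marked genes, and 68 at or above their median score. Other short genes had narrower marks: the 937 marked genes with a span between 2409 and 4451 bp, the interquartile range of the ribosomal protein genes, had a median width of 2464 bp (2396 to 2542). The median was also above that of mitochondrial ribosomal protein genes (2126 bp, 2002 to 2368) and proteasome subunit genes (2277.5 bp, 2094 to 2440). Translation factor genes were taken by symbol, as Eif or Eef with a number, so related genes such as Eif4ebp3 are among them. At 2702 bp (2515 to 2936) they came nearer, and their interval overlaps that of the ribosomal protein genes. So do those of ribosome biogenesis genes (2730 bp, 2280 to 3257) and of the 7 ribosomal protein and related genes outside the symbol rule (2811 bp, 2116 to 4660). Marked keratinocyte marker genes had a higher median, 3437.5 bp (1847 to 6971, n = 14).

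Large and small subunit genes did not separate in width. The median was 3135 bp (2884 to 3325) for 47 large subunit genes and 2935 bp (2618 to 3346) for 31 small subunit genes, and the intervals overlap over most of their length. Measured only on peaks at annotated starts, the medians were 3116.5 bp and 3097 bp. Over peaks near no other protein-coding gene they were 3073 bp for 27 large and 2683 bp for 21 small subunit genes. The median H3K4me3 score was 2209.29 for the large and 1870.39 for the small subunit. At or above the score ceiling stood 9 genes, 8 of the large subunit (17.0% of those marked) and Rps12 of the small (3.23%), against 8.13% of all marked genes.

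**Figure D1:**
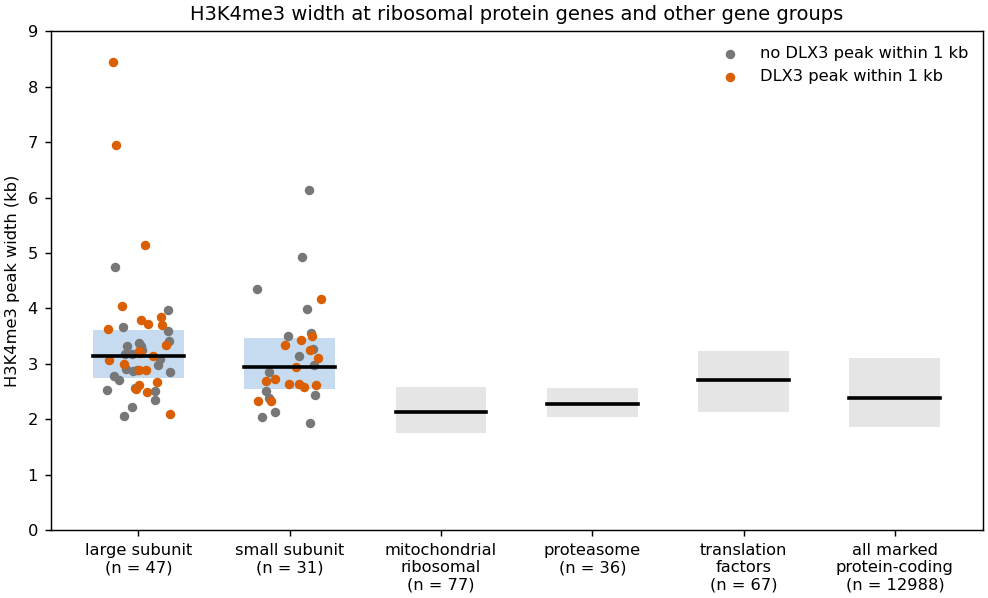
Width of the H3K4me3 peak (kb) at marked genes, each point 1 ribosomal protein gene, orange where a DLX3 peak lay within 1 kb; boxes span the first to the last quartile and black lines are medians. The large subunit median is 3135 bp and the small subunit median 2935 bp, both above the 2392 bp of all marked protein-coding genes, and the points with and without DLX3 mix over most of the range.

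The widest peak, 8446 bp, lay over Rpl23a, whose protein sits where the nascent chain leaves the ribosome. It also covers ends of Nek8 and Tlcd1. Next came Rpl18 with 6949 bp, a peak shared with Fam83e and Sphk2, and Rps2 with 6138 bp, shared with Ndufb10 and Rnf151. Rpl7 had 5145 bp, shared with Rdh10. Rps19, whose mutation causes Diamond-Blackfan anaemia, had 4930 bp and was the only gene of these 5 whose peak reached no other protein-coding gene. The narrowest peaks were those of Rps24 (1933 bp), Rps27l (2050 bp), Rpl5 (2068 bp), Rpl22 (2096 bp) and Rps7 (2130 bp). Peaks shared with another gene, 30 in all, had a median of 3209 bp (2845 to 3705), against 2982.5 bp (2708 to 3230) for the 48 that were not shared, and these intervals overlap.

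The mark reached much further into the genes than away from them. For the 56 genes with an annotated start inside the peak, it extended, from the start nearest the peak's centre, a median of 1018.5 bp upstream and 2098 bp downstream. The downstream arm was the longer one at 54 of the 56 (96.4%), against 78.2% of marked protein-coding genes, where the medians were 903 and 1391 bp, and against 75.9% of marked genes of the same span range, with 901 and 1453.5 bp. The upstream arm was thus close to that of other genes and the downstream arm longer. In mitochondrial ribosomal protein genes the downstream arm was longer at 60%.

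The mark covered most of the length of these genes. A median of 68.6% of the gene span lay under the peak, against 43.0% at marked genes of the same span range. More than 50% of the span was covered at 58 of 78 (74.4%) and at 38.7% of the span-matched genes. The whole span was covered at 10 ribosomal protein genes (12.8%, against 5.76%), among them Rpl41, which encodes one of the smallest known proteins, and Rplp1 of the stalk. Rps2 had the longest downstream arm, 4913 bp, past the end of the gene. The 2 of the 56 genes with the longer arm upstream were Rpl18 (4513 bp upstream and 2435 bp downstream) and Rpl7a (2080 and 1958 bp). The annotated start of Rpl18 lies inside its span, which lengthens the upstream arm.

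**Figure D2:**
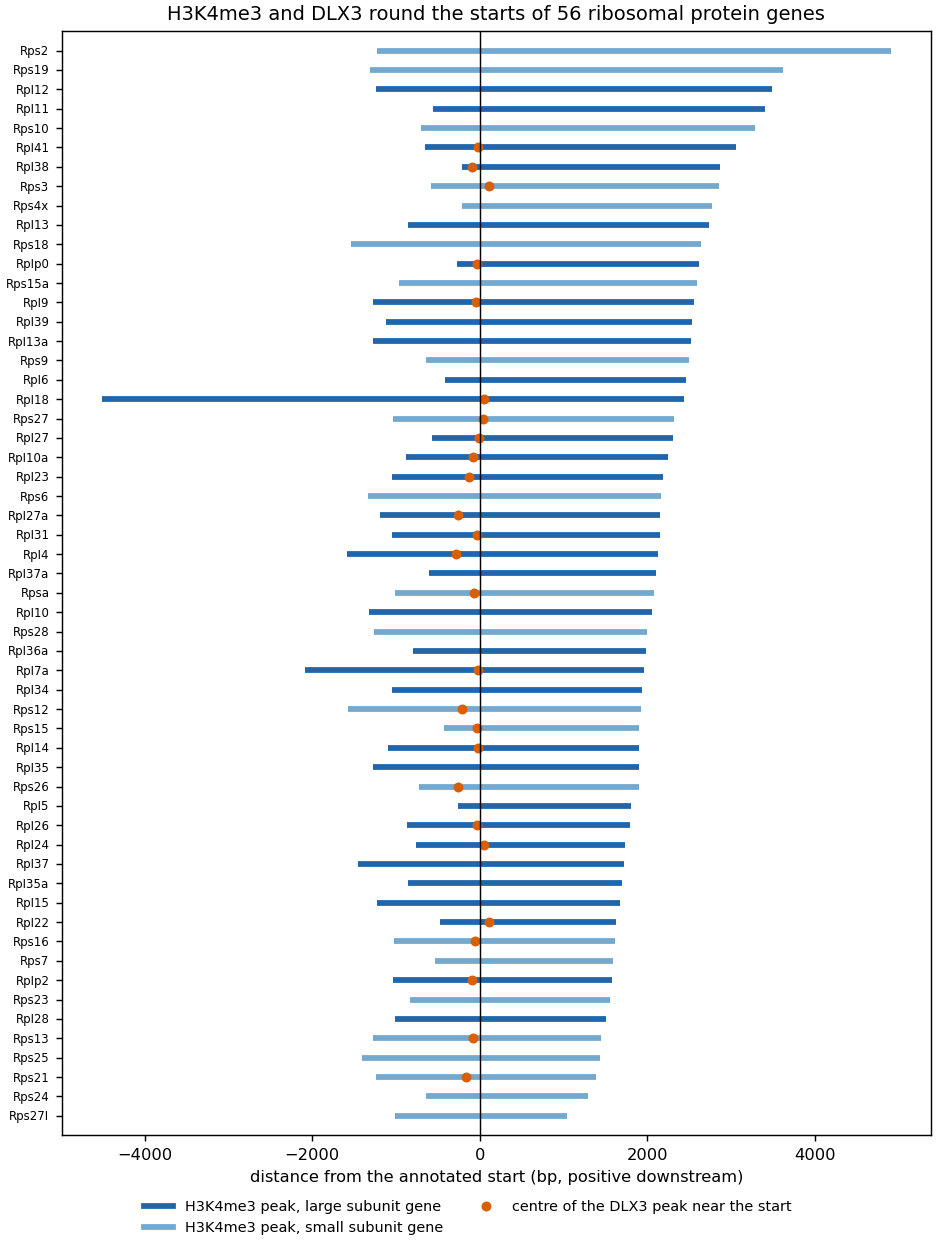
Reach of the H3K4me3 peak (bars, dark for large and light for small subunit genes) and centre of the DLX3 peak (orange points) in bp from the annotated start, for the 56 ribosomal protein genes whose start lies inside the peak, ordered by downstream reach. Downstream arms are the longer at 54 of 56, and the DLX3 centres lie from -278 to 117 bp.

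Genes that carry small nucleolar RNA genes, guides of ribosomal RNA modification, in their span had somewhat broader marks. There were 29 such hosts with 58 small nucleolar RNA genes. Their median width was 3325 bp (3093 to 3627), against 2888 bp (2629 to 3135) in the other 49 marked genes. The median span of the hosts was 3175 bp and that of the rest 3216.5 bp, so the hosts were not longer genes. The width intervals overlap by a narrow margin. Rpl4, with 5 small nucleolar RNA genes, had a peak of 3716 bp. DLX3 lay within 1 kb of 51.7% (34.4 to 68.6) of the hosts and 42.3% (29.9 to 55.8) of the other 52 genes, which these counts do not separate.

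DLX3 lay at a share of ribosomal protein genes close to that of marked genes in general. A DLX3 peak came within 1 kb of a gene end for 37 of 81 (45.7%, 35.3 to 56.5), on 36 distinct peaks, against 27.6% of all protein-coding genes. Among genes with H3K4me3 the gap closed, with 37 of 78 (47.4%, 36.7 to 58.4) against 45.4%. Within 5 kb the count was 49 of 81 (60.5%, 49.6 to 70.4), against 35.8% of all genes, and 48 of 78 marked genes (61.5%, 50.4 to 71.6), against 54.8%. Among marked genes with a width in the interquartile range of the ribosomal protein genes, the share was 57.0%. It lies within the interval of the marked ribosomal protein genes, 36.7 to 58.4, near the upper end. Among marked genes of the span range of the ribosomal protein genes, it was 44.3% within 1 kb and 54.6% within 5 kb. Within 1 kb the share of the marked ribosomal protein genes was thus near that of all marked genes and of those of like span. It was below that of marked genes of like width. It was also below that of marked genes in each class of H3K4me3 score that held ribosomal protein genes, as given below. Within 5 kb, the top peak overlapped an H3K4me3 peak at 43 of the 49 genes, a share like the 6716 of 7844 among all protein-coding genes.

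The large and the small subunit had like shares of genes with DLX3, as far as these counts can tell. Within 1 kb they were 22 of 50 (44.0%, 31.2 to 57.7) and 15 of 31 (48.4%, 32.0 to 65.2), a difference of -4.39 percentage points with an interval from -25.5 to 17.0. Within 5 kb they were 28 of 50 (56.0%) and 21 of 31 (67.7%), a difference of -11.7 points (-31.1 to 10). At annotated starts the order turned, with 17 of 38 large subunit genes (44.7%) and 9 of 23 small subunit genes (39.1%), a difference of 5.61 points. Both intervals include 0 and are wide, so neither a difference nor equal shares are shown.

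**Figure D3:**
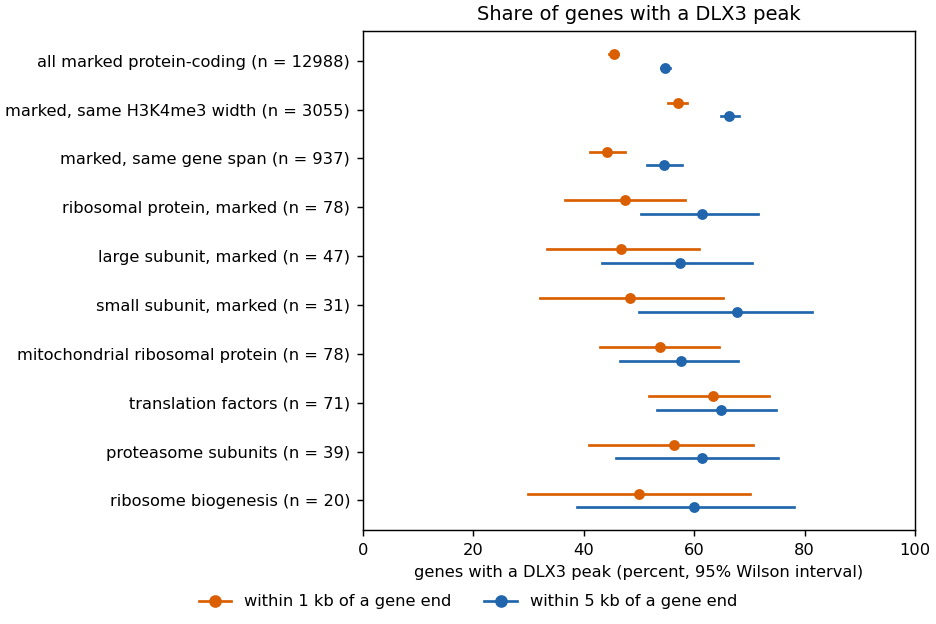
Share of genes with a DLX3 peak (percent, points with 95% Wilson intervals) within 1 kb (orange) and 5 kb (blue) of a gene end, for marked protein-coding genes, ribosomal protein genes and comparison lists. The interval of the marked ribosomal protein genes within 1 kb, 36.7 to 58.4%, includes the 45.4% of all marked genes.

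DLX3 peaks near the starts were centred close to them. For the 26 genes with a DLX3 peak within 1 kb of an annotated start, the centre lay from 278 bp upstream to 117 bp downstream, with a median of -39 bp, and 21 of the 26 were upstream. All 26 were within 300 bp, against 83.6% of 4877 protein-coding genes measured the same way. Taking instead the highest-scoring DLX3 peak within 5 kb, over the 28 genes with DLX3 within 1 kb of a gene end and an annotated start, 24 (85.7%) were centred within 300 bp, against 70% of marked protein-coding genes. Rps18, Rpl14 and Rpl18 were among those centred elsewhere, and that of Rps18 lay at its far end, beside B3galt4. At all 37 genes with DLX3 within 1 kb of a gene end, the highest-scoring peak within 5 kb overlapped an H3K4me3 peak. Among marked protein-coding genes with DLX3 within 1 kb this held at 5599 of 5903.

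Among the stronger DLX3 peaks of the family was that of Rps16, a small subunit protein gene, with a score of 214.32 at chr7:28350271-28350990 and its centre 59 bp before the start. Rpl41 had 210.91 at chr10:128548766-128549608, a peak also within 1 kb of Zc3h10. Rpl9 had 201.22 at chr5:65391207-65391748, also near Lias. Rpl9 and Rpl41 had H3K4me3 at the ceiling of 3100. Rpl31 followed with 191.57, Rps12 with 174.0 and Rpl36, whose peak is also near Micos13, with 172.36.

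As a group the scores were like those of other marked genes. The median over the 37 was 93.19, against 96.67 over marked protein-coding genes with DLX3. At or above the median of the whole DLX3 list were 21 of 37 (56.8%), against 61.3% of those genes. The weakest was the peak of Rps29, 50.97, near the lowest score the list holds. In 13 of the 37 the peak was also within 1 kb of another protein-coding gene, so which gene it belongs to cannot be told apart by position.

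DLX3 was more frequent at genes with higher H3K4me3 scores. All 9 ribosomal protein genes at or above the H3K4me3 ceiling (Rpl4, Rpl7, Rpl9, Rpl13a, Rpl18, Rpl23a, Rpl27a, Rpl41 and Rps12) had DLX3 within 1 kb, against 75% of 1056 such protein-coding genes. Marked protein-coding genes were split by H3K4me3 score into 5 classes of about equal size. The share of ribosomal protein genes with DLX3 was 58.8% (20 of 34) in the highest class and 48.3% (14 of 29) in the next. It was 22.2% (2 of 9) in the middle class and 16.7% (1 of 6) in the class below, and none of the family was in the lowest. Marked protein-coding genes in the same 4 classes had 71.4, 59.9, 51.5 and 32.3%. The ribosomal protein genes were below them in each class, and the middle class, of 9 genes, had the widest gap. The median H3K4me3 score was 2356.61 with DLX3 and 1842.32 without. Width differed less, 3097 bp (2725 to 3349) with DLX3 and 2984 bp (2785 to 3313) without.

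**Figure D4:**
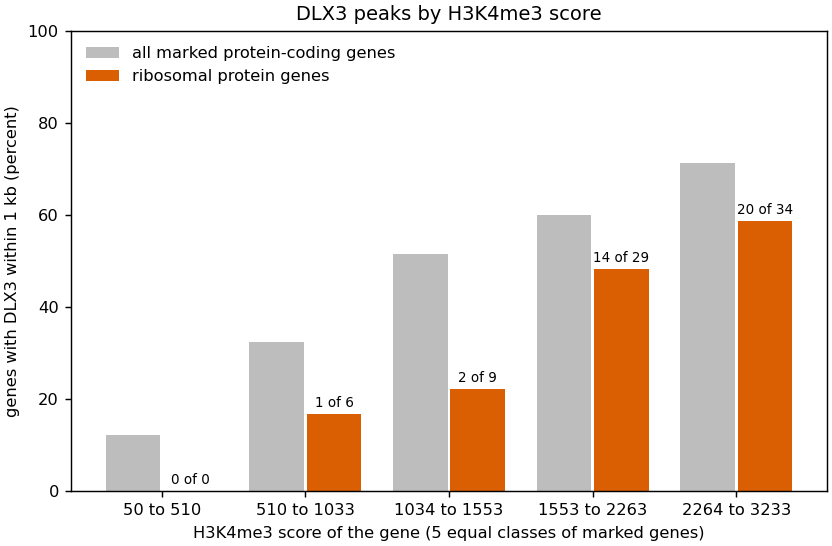
Percent of genes with a DLX3 peak within 1 kb in each of 5 classes of H3K4me3 score, for all marked protein-coding genes (grey) and ribosomal protein genes (orange, with counts). Shares climb with the score in both, and the orange bar is the lower one in each of the 4 classes that hold ribosomal protein genes.

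The 4 X-linked genes had no DLX3 peak within 5 kb. They are Rpl10, Rpl36a, Rpl39 and Rps4x, with H3K4me3 scores of 1370.71, 803.41, 1905.21 and 928.62 and widths of 3369, 2785, 3656 and 2981 bp. Few marked genes of chromosome X had DLX3 within 1 kb, 15.9% (12.6 to 19.9), against 46.4% of marked autosomal genes. A count of 0 of 4 allows a share of up to 49.0% (Wilson). Among the 74 marked autosomal ribosomal protein genes the share was 50% (37). The sources used here do not give the sex of the mice.

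By place in the ribosome, DLX3 was scattered. The groups by place on both subunits are small and stand beside a share of 45.4% within 1 kb among all marked protein-coding genes. In the P stalk, which recruits the translation factors, Rplp0 (62.84) and Rplp2 (111.49) had a peak and Rplp1 none, though the H3K4me3 score of Rplp1 (2302.12) was the highest of the 3. Rpl5 and Rpl11, which travel with 5S ribosomal RNA and can hold Mdm2 in check, had none within 1 kb. Both had high H3K4me3 scores, 2310.45 and 2209.29. At the tunnel exit 4 of 8 had DLX3: Rpl31 (191.57), Rpl22 (98.08), Rpl23a (81.81) and Rpl26 (54.38). Rpl17, Rpl19, Rpl35 and Rpl39 had none within 1 kb.

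On the small subunit, Rps3 had DLX3 within 1 kb (72.49) and Rps2, its neighbour at the messenger entry, only beyond it (123.96). At the messenger exit Rps26 had a peak (79.91), Rps28 only beyond 1 kb (130.9) and Rps14 none. In the beak, Rps12 (174.0) and Rps27a (80.45), which is made as a fusion with ubiquitin, had a peak and Rps10 had none. The H3K4me3 score ran the same way there, 3125.2 at Rps12, 2451.29 at Rps27a and 1256.75 at Rps10.

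Genes whose mutation alters pigment, tail or growth in mice had DLX3 within 1 kb in 4 of 7 (57.1%, 25 to 84.2), an interval that includes the 45.4% of marked genes. These were Rpl24 (98.55), the Belly spot and tail gene, Rps20 (94.53), a dark skin gene, Rpl38 (77.2), the Tail short gene, and Rpl27a (58.65). Rps6, Rps7 and Rps19 had none within 1 kb, and Rps19 is the other dark skin gene of the list. All 7 were marked, with H3K4me3 scores from 1658.3 to 3109.58. Of 15 genes mutated in Diamond-Blackfan anaemia 6 had DLX3 within 1 kb (40%, 19.8 to 64.3), and 11 within 5 kb (73.3%, 48.0 to 89.1). These intervals include the shares of marked protein-coding genes, 45.4% and 54.8%. Rpl31 (191.57), Rps27 (95.51), Rps26 (79.91), Rpl26 (54.38) and Rps29 (50.97) were among those with DLX3 within 1 kb. Of the 4 genes of a chosen list of paralogues that are in the gene table, Rpl3l, Rpl10l, Rpl39l and Rps27l, none had DLX3 within 1 kb. This count allows a share of up to 49.0% (Wilson), against 27.6% of all protein-coding genes. Rpl32l was not on that list.

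DLX3 peaks beyond 1 kb were the only ones within 5 kb at 12 genes. Rps15a stood out by score, 192.91, with the peak beyond the far end of the gene and off H3K4me3. Rps28 (130.9) and Rpl17 (50.51) had peaks on H3K4me3 that were also within 5 kb of Kank3 and BC031181. Rps2 and Rpl3l shared 1 peak (123.96) in the gap of 5898 bp between them. Rps24 (79.98) had its peak on H3K4me3 near Polr3a. Rps19 (108.73), Rpl13 (74.96), Rps7 (66.38), Rpl11 (59.49) and Rpl32l (53.6) had peaks off H3K4me3, and that of Rps7 lay within the gene. The remaining 32 genes had no DLX3 peak within 5 kb.

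Other gene groups of protein synthesis and turnover had DLX3 within 1 kb at like or higher shares. They were 53.8% (42 of 78) for mitochondrial ribosomal proteins, 63.4% (45 of 71, 51.8 to 73.6) for translation factors, 56.4% (22 of 39) for proteasome subunits and 50% (10 of 20) for ribosome biogenesis genes. The intervals of all 4 overlap that of the ribosomal protein genes, 35.3 to 56.5, which does not show equal shares. The share of translation factors lies above the upper end of that interval. No interval of the difference was computed for these groups. Of 7 genes close to the family but outside the symbol rule, 3 had DLX3 within 1 kb, Rpl36al and Fau among them, and Rps3a1, Rpl22l1, Rpl7l1 and Rack1 had none. All 7 were marked.

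The promoter windows differed from those of other genes in some of the motifs searched, whose letters the selection did not use. The 61 genes gave 73 windows, each from 250 bases before to 50 bases from a start, compared with 21263 windows of all protein-coding genes and 12990 of marked ones. The ETS core CCGGAAG, read on both strands, was in 35.6% (25.6 to 47.1), against 11.6% of all and 16.8% of marked windows. AANATGGC, a YY1-like motif, was in 20.5% on either strand, against 6.37 and 7.89%. CTCGCGAG was in 11.0%, against 1.24 and 1.81%. Other motifs searched did not stand out in this way. GGGCGG, the GC box, was in 57.5%, against 46.2 and 64.1%, and CCAAT in 30.1%, against 38.2 and 37.7%. The E-box CACGTG was in 11.0%, against 7.84 and 9.88%, and the TATA box TATAAA in 8.22%, against 8.26 and 4.22%. A start at C followed by 4 pyrimidines was in 19.2%, against 2.21 and 2.3%, and a pyrimidine run within 10 bases of the start in 47.9%, against 19.4% of both. Among the printed stretches, which are examples only, Rpl31, Rps12, Rps6, Rpl35 and Rpl39l hold such a run and Rps16, Rpl41, Rpl9, Rpl11 and Rps19 do not. Over the family's windows, the run was in 41.4% (25.5 to 59.3) of the 29 with DLX3 within 1 kb of a start. It was in 53.8% (38.6 to 68.4) of the 39 with H3K4me3 and no DLX3, and these intervals overlap. The start at C with 4 pyrimidines was in 17.2% of windows with DLX3 and 20.5% of marked windows without it.

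The homeodomain core TAATT, read on both strands, was not more frequent where DLX3 was. It lay in 17.2% of the 29 windows of ribosomal protein genes with DLX3 within 1 kb of a start and in 20.5% of the 39 windows with H3K4me3 and no DLX3. Marked windows of all protein-coding genes with and without DLX3 had 15.2 and 16.0%. The YY1-like motif was in 10.3% (3.58 to 26.4) with DLX3 and 30.8% (18.6 to 46.4) without, and these intervals overlap. In marked windows of all protein-coding genes the order was the other way, 9.4% with DLX3 and 6.49% without. The ETS core was in 34.5 and 38.5% of the family's windows, and in 19.2 and 14.3% of the marked windows of all protein-coding genes. A match here describes letters in a window of the reference sequence only, and windows of 1 gene can overlap.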

How the data were processed

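Suprabasal keratinocyte chromatin was precipitated with anti-DLX3, anti-H3K4me3 or IgG, 1 library each. Per the submitters' processing notes, Bowtie 1.1.2, MACS 1.4.2 and HOMER were used with the mm10 build; no settings are stated. In the deposited lists, each row gives a peak's position and a score written by the authors' peak caller. The score was used only to describe, rank or filter peaks within a list. Peaks were called on single libraries, so a threshold in the calling decides what counts as absent. The IgG library has no list and was not analysed here, and the sources used here do not say what part it had in the calling. They do not say either how reads that match several places were treated, and 320 pseudogenes carry names built on the symbols of the rule.

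Starts were moved to 1-based positions. A gene counted as marked or bound where at least 1 base of a peak came within 1 or 5 kb of either end of its RefSeq span (GRCm38.p6). Of several peaks the highest-scoring was used. Starts came from the RefSeq promoter windows, which cover 61 of 81 genes. Shares have 95% Wilson intervals, differences Newcombe intervals and medians order-statistic intervals. The overlap step was tested on simulated peaks. Python 3.11.15, pandas 2.3.3, numpy 2.4.6 and scipy 1.17.1 were used. The members and lists were chosen with earlier results of these data known, as were the comparisons by X chromosome, width and span. Named genes were the 10 with the highest DLX3 scores within 5 kb, those without H3K4me3, the 5 widest and the 5 narrowest peaks, those with DLX3 only beyond 1 kb, and the role lists. Some genes that this rule names are not reported here. The ceiling genes, the X-linked genes, Rpl4, Rpl7a, Rpl14 and Rps18 were singled out after their values were seen.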

Additional observations from a re-analysis of the deposited data

How the results depend on the processing

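Of 82 values recomputed under other settings, 65 were labelled as unchanged and 17 as moved, by wide limits. A count was unchanged within a fixed fold range, and a share, difference or median when inside the main interval. So the 1 kb difference between subunits, -4.39 points, counted as unchanged at 5.61 at annotated starts. The 5 kb difference, -11.7, did so at -2.97. Counts with windows of 0.5, 2 and 10 kb and with the gene span were set against both main counts. With only DLX3 peaks at or above the list's median score, 21 ribosomal protein genes had DLX3 within 1 kb (26.0% of large and 25.8% of small subunit genes) and 28 within 5 kb (32.0 and 38.7%). With the top 20% of peaks, 10 had DLX3 within 1 kb (12 and 12.9%) and 12 within 5 kb (14 and 16.1%), and 45 had an H3K4me3 peak. Leaving out genes whose DLX3 peak is also near another protein-coding gene left 24 within 1 kb and 17 within 5 kb (29.0 and 44.4%). These settings keep fewer peaks or genes by construction. The widths of large and small subunit genes moved by less than their intervals at annotated starts, and without Rpl3l and with the peak at its own starts for Rpl19 they were 3154.5 and 2935 bp (chosen after seeing the data). No paired analysis was possible because there is 1 library per antibody. The span-end rule gives Rpl19 a peak of 2221 bp on the Cacnb1 side, while the peak at its own starts is 3098 bp wide. Reads were not analysed here, so a peak missing from a list can be a weak one.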
